A study of Homo sapiens and Mus musculus with 12 samples.

Results

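The genes described here are 10 markers of splenic red pulp macrophages, namely Hmox1, Spic, Vcam1, C1qa, C1qb, C1qc, Slc40a1, Cd163, Adgre1 and Csf1r, as they were counted in RNA from sorted natural killer (NK) cells. They were taken by symbol from the mouse count table, where all 10 were found among 22021 listed genes and all 10 passed the filter on low counts, among 13189 genes tested. The study sequenced splenic NK cells from 3 WT and 3 KO samples to ask how loss of the histone methyltransferase Ehmt2 changed NK cells. WT mice were Ehmt2 flox/flox and KO mice were Ehmt2 flox/flox; Ncr1 iCre, so both groups carried the floxed alleles. The labels name no treatment for either group, and both were age- and sex-matched young adults on a C57BL/6J background. A second table held 3 BIX-01294-treated and 3 DMSO-treated libraries of the human line NK92MI. The genotype field of the KO samples reads Ezh2-KO while their titles read EHMT2-KO, and the titles were followed.

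Red pulp macrophages lie in the cords of the splenic red pulp, engulf aged red blood cells and return the iron of their heme to the blood. The transcription factor Spic is required for their development, Hmox1 opens the heme ring, Slc40a1 (ferroportin) exports the freed iron, and Cd163 takes up hemoglobin bound to haptoglobin. Vcam1 holds leukocytes that carry integrins, C1qa, C1qb and C1qc encode the chains of the complement component C1q, and Adgre1 (the antigen F4/80) and Csf1r (the receptor for CSF1 and IL-34) mark macrophages more broadly. NK cells are lymphocytes that are not known for making C1q, ferroportin or F4/80, so these transcripts were read as a measure of RNA from other cells, against the NK identity genes Ncr1 (NKp46) and Klrb1c (NK1.1).

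Neither NK gene was a neutral reference. KO mice alone carried iCre driven from Ncr1, and NK1.1, the product of Klrb1c, was part of the CD3- NK1.1+ definition of NK cells in the study, whose methods do not give the gate used for these libraries. The labels do not say whether the 3 replicates of a group were separate mice, so the p-values measure the spread between these samples. Bulk RNA does not show which cells these transcripts came from, and in it fewer macrophages and less RNA per macrophage cannot be told apart.

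Library totals ran from 25891680 counts in WT replicate 2 to 37438868 in KO replicate 2. Ehmt2, the targeted gene, was at 275, 284 and 285 CPM (counts scaled to library size, normalized by TMM) in WT replicates 1, 2 and 3 and at 171, 143 and 137 CPM in KO replicates 1, 2 and 3, so no library went against its title (log2 fold change -0.91, standard error 0.10, adjusted p = 0.0162 by edgeR's quasi-likelihood test). Both NK identity genes were counted in all 6 libraries, Ncr1 at 333 to 583 CPM and Klrb1c at 304 to 743 CPM. Their presence does not measure how pure the NK cells were. WT replicate 2 stood apart from the other WT libraries before any comparison: the 10 macrophage genes summed to 1848 CPM there, against 7573 CPM in WT replicate 1 and 4530 CPM in WT replicate 3. The sum in WT replicate 1 was 4.10 times that in WT replicate 2, which in turn was 1.15 times that in KO replicate 1, so the tests and the ratios between genes are also given without this library. It was singled out by its level of these same genes, so the values without it are a description and lend the full comparison no support. KO replicates 1, 2 and 3 summed to 1610, 839 and 1271 CPM.

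The 3 C1q genes offered a check within the set, because their chains are assembled together and their genes lie side by side on the minus strand of chromosome 4, within 18.7 kb in the GENCODE M21 annotation of GRCm38. C1qb spans chr4:136880129-136886187, C1qc chr4:136889804-136893065 and C1qa chr4:136895917-136898803. Each chain has a collagen-like stalk in which glycine opens each set of 3 residues, and the stretches below, each 90 bases of coding sequence in 1 exon, are shown because this shared repeat could make reads hard to assign to 1 chain. The capitals mark the glycine codon (GGN) that opens each of the 10 repeats printed, and the sequences run 5′ to 3′ on the coding strand from chr4:136896619-136896708 for C1qa, chr4:136882128-136882217 for C1qb and chr4:136890493-136890582 for C1qc.
C1qa: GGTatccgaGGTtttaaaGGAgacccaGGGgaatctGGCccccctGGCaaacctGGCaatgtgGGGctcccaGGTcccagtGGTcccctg
C1qb: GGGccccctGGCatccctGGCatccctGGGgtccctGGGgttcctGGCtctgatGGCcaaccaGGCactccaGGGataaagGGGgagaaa
C1qc: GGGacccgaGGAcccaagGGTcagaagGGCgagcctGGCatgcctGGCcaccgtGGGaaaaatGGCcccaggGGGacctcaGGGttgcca
The longest unbroken run of such repeats was 16 in C1qa, 29 in C1qb and 16 in C1qc, over coding sequences of 735, 759 and 738 bases. The codons between the glycines differed, and none of the 50-base words of any of the 3 transcripts was found in a transcript of another gene.

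The genes of heme and iron recycling were lower in KO libraries. Hmox1 (chr8:75093621-75100589, GRCm38), the heme oxygenase, was at 2242, 407 and 1171 CPM in WT replicates 1, 2 and 3 and at 283, 144 and 229 CPM in KO replicates 1, 2 and 3. All KO libraries lay under all WT libraries, and WT replicate 2 was nearer to KO replicate 1 than to either other WT library. Hmox1 fell from 1273 ± 922 CPM in WT to 219 ± 70.2 CPM in KO (SD, n = 3 each), a log2 fold change of -2.54 with a standard error of 0.57 and an adjusted p of 0.0402 in the edgeR fit. Slc40a1 (chr1:45908068-45926523), the only known cellular iron exporter, was at 625, 129 and 314 CPM in WT and at 110, 42.6 and 84.2 CPM in KO. Its groups did not overlap either, again with WT replicate 2 just above KO replicate 1. Slc40a1 fell from 356 ± 250.5 to 78.8 ± 33.9 CPM (SD, n = 3; log2 fold change -2.18, standard error 0.56, edgeR adjusted p = 0.0481). Cd163 (chr6:124304656-124330527), the hemoglobin scavenger receptor and the least abundant of the 10 genes, was at 84.1, 22.3 and 50.3 CPM in WT and at 22.0, 9.78 and 18.5 CPM in KO. The gap between WT replicate 2 and KO replicate 1 was small for this gene, and its difference of -1.64 on the log2 scale did not pass the threshold of 0.05 (standard error 0.47, edgeR adjusted p = 0.0588).

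Spic and Vcam1 behaved like Hmox1. Spic (chr10:88674772-88685015), the transcription factor of this lineage, was at 202, 48.7 and 146 CPM in WT replicates 1, 2 and 3 and at 41.5, 16.0 and 24.3 CPM in KO replicates 1, 2 and 3. WT replicate 2 lay closer to KO replicate 1 than to its own group, without overlap. Spic fell by 2.28 on the log2 scale, from 132 ± 77.6 to 27.3 ± 13.01 CPM (SD, n = 3; standard error 0.53, edgeR adjusted p = 0.0420), while 6.83% of the 50-base words of its transcript also occur in other genes, so a small share of its reads is uncertain. Vcam1 (chr3:116109949-116129688), the adhesion molecule that binds integrin α4β1, was at 940, 176 and 586 CPM in WT and at 149, 65.1 and 133 CPM in KO. Its groups were separate, with a decrease from 568 ± 382 to 116 ± 44.4 CPM (SD, n = 3; log2 fold change -2.30, standard error 0.57, edgeR adjusted p = 0.0463). The antisense gene Gm43109 overlaps Vcam1, and since the strand setting of the counting is not stated, reads of the pair cannot be told apart.

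The C1q chains moved together but did not pass the test with all libraries. C1qa was at 718, 169 and 452 CPM in WT replicates 1, 2 and 3 and at 184, 73.3 and 116 CPM in KO replicates 1, 2 and 3. C1qb was at 586, 134 and 384 CPM in WT and at 149, 62.7 and 103 CPM in KO. C1qc was at 678, 163 and 434 CPM in WT and at 172, 66.1 and 109 CPM in KO. All 3 chains had the same order of libraries, and for all 3 WT replicate 2 was below KO replicate 1, so these were the only members whose groups overlapped. The log2 differences were -1.84 for C1qa (standard error 0.52), -1.81 for C1qb (0.52) and -1.88 for C1qc (0.52). Their adjusted p-values in the edgeR fit were 0.0566, 0.0578 and 0.0547. Without WT replicate 2, the library singled out for its low level of these genes, the log2 differences were -2.23, -2.20 and -2.26, with edgeR adjusted p-values of 0.00537, 0.00454 and 0.00546. Without WT replicate 1, WT replicate 3, KO replicate 2 or KO replicate 3, none of the 3 passed, with edgeR adjusted p-values from 0.144 to 0.181. Without KO replicate 1, they were 0.0475 for C1qa, 0.0531 for C1qb and 0.0458 for C1qc.

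The more general macrophage receptors showed the smallest differences. Adgre1 (chr17:57358691-57483527) was at 213, 78.0 and 137 CPM in WT replicates 1, 2 and 3 and at 67.7, 38.4 and 55.3 CPM in KO replicates 1, 2 and 3. No KO library reached the WT range, and Adgre1 fell from 143 ± 67.6 to 53.8 ± 14.7 CPM (SD, n = 3; log2 fold change -1.41, standard error 0.35, edgeR adjusted p = 0.0471). Csf1r (chr18:61100598-61132149) was at 1285, 521 and 856 CPM in WT and at 432, 321 and 398 CPM in KO. It fell from 887 ± 383 to 384 ± 56.5 CPM (SD, n = 3; log2 fold change -1.21, standard error 0.30, edgeR adjusted p = 0.0455), with separate groups and the narrowest spread over libraries of the 10 genes. Csf1r is overlapped on the opposite strand by Hmgxb3 and on its own strand by Mir6983.

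**Figure D1:**
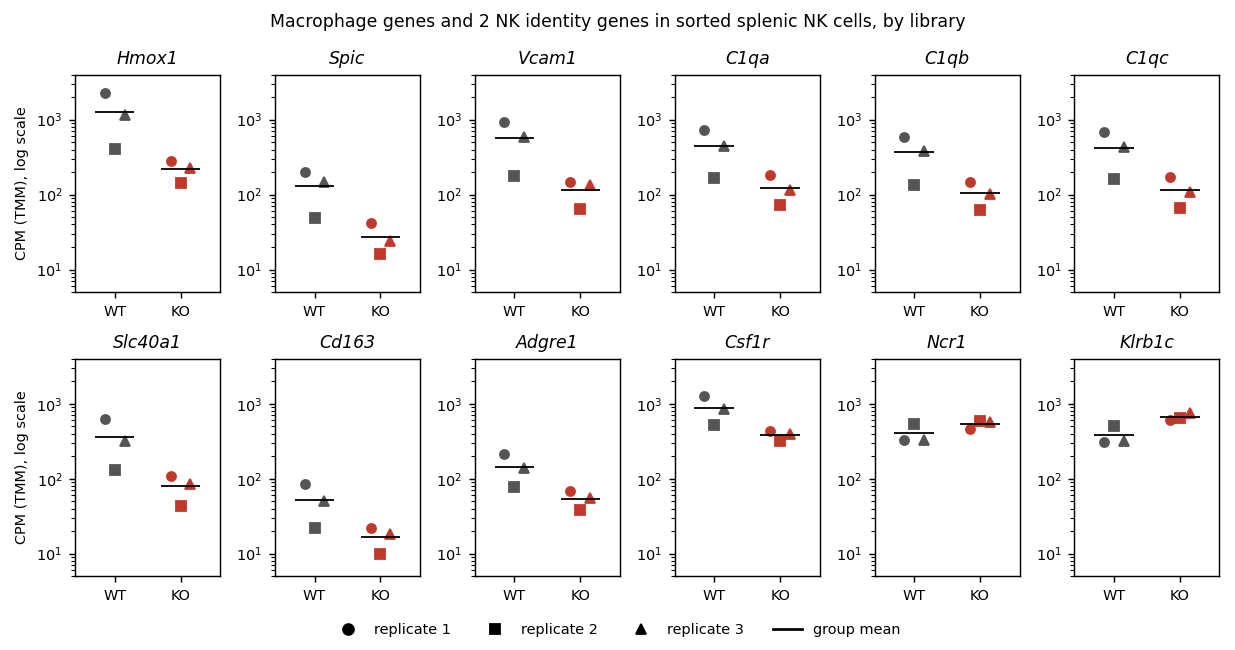
TMM-normalized CPM (log axis) of each macrophage gene and of Ncr1 and Klrb1c in the 3 WT and 3 KO libraries, with 1 point for each library, marked by replicate, and the group means. Each macrophage gene was highest in WT replicate 1 and lowest in KO replicate 2, and WT replicate 2 lay beside KO replicate 1.

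In all, 6 of the 10 genes were called lower and 0 higher in KO at an adjusted p under 0.05, where 7.43% of all genes tested were called lower and 4.44% higher. All 10 were lower in KO at an unadjusted p under 0.05, against 20% of all genes tested, and none was higher, against 15.8%. DESeq2 and limma-voom also called 0 members higher, where they called 8.33% and 4.67% of all genes tested higher. For 7 of the 10, every KO library was below every WT library, which held for 19.3% of all genes tested. The median log2 fold change of the 10 genes was -1.86 (range -2.54 to -1.21), beside a median of 0.01 over all genes tested. Ratios of the WT mean to the KO mean ran from 2.31 for Csf1r to 5.82 for Hmox1. Every one of the 10 was highest in WT replicate 1 and lowest in KO replicate 2, and the ratio of these 2 libraries reached 15.6 for Hmox1.

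The calls depended on which libraries entered. Without WT replicate 2, all 10 genes were called lower in KO, where 15.6% of all genes tested were, but that library was chosen for its low level of these genes, which favors such a gain. The fit without it gave log2 fold changes of -2.96 for Hmox1, -2.72 for Vcam1, -2.67 for Spic, -2.57 for Slc40a1, -2.002 for Cd163, -1.70 for Adgre1 and -1.48 for Csf1r. The lower of WT replicates 1 and 3 was then 1.98 to 4.13 times the highest KO library for every gene. Without WT replicate 1, WT replicate 3, KO replicate 2 or KO replicate 3, edgeR called 0 of the 10, although all 10 stayed lower in KO at an unadjusted p under 0.05, and the share of all genes called lower was 0.48%, 0.06%, 0% and 0%, respectively. Without KO replicate 1, 6 were called, where 9.96% of all genes were. DESeq2 called all 10 lower, where it called 15.1% of all genes tested, and limma-voom called 3, where it called 6.76%.

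**Figure D2:**
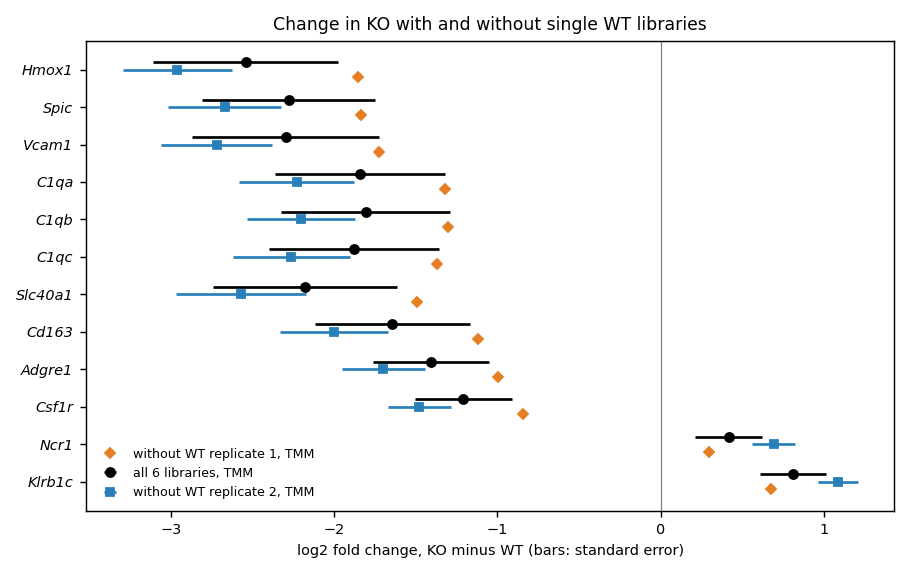
Log2 fold change, KO minus WT, of the 10 macrophage genes, Ncr1 and Klrb1c (horizontal axis) with all 6 libraries and without WT replicate 2 (bars, standard error) and without WT replicate 1 (no error drawn). The macrophage genes lie left of 0 in each fit, from -1.21 to -2.54 with all libraries, and Ncr1 and Klrb1c lie right of it.

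Ncr1 and Klrb1c ran the other way across libraries. Ncr1 was at 333, 542 and 333 CPM in WT replicates 1, 2 and 3 and at 455, 583 and 576 CPM in KO replicates 1, 2 and 3. WT replicate 2 was above KO replicate 1, and the difference of 0.42 on the log2 scale did not pass the test (standard error 0.21, edgeR adjusted p = 0.185). Klrb1c was at 304, 508 and 321 CPM in WT and at 607, 636 and 743 CPM in KO. Klrb1c rose without overlap between the groups, from 378 ± 113 to 662 ± 71.4 CPM (SD, n = 3; log2 fold change 0.81, standard error 0.20, edgeR adjusted p = 0.0462), and 18.1% of the 50-base words of its transcript are shared with Klrb1a, Klrb1b, a pseudogene and Gm44511, so its reads are partly uncertain. Without WT replicate 2, both genes rose, Ncr1 by 0.69 (edgeR adjusted p = 0.0101) and Klrb1c by 1.09 (edgeR adjusted p = 0.00239). Among the WT libraries, WT replicate 2 had the most Ncr1 and Klrb1c and the least of all 10 macrophage genes.

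The summed CPM of the 10 macrophage genes was 11.9, 1.76 and 6.92 times that of Ncr1 and Klrb1c together in WT replicates 1, 2 and 3. The same ratio was 1.52, 0.688 and 0.964 in KO replicates 1, 2 and 3. All KO libraries were below all WT libraries, but WT replicate 2 was much nearer to KO replicate 1 than to WT replicate 3. The ratio of Ncr1 to Klrb1c itself was 1.09, 1.07 and 1.04 in WT and 0.750, 0.915 and 0.776 in KO, so the choice of NK gene moved the comparison.

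**Figure D3:**
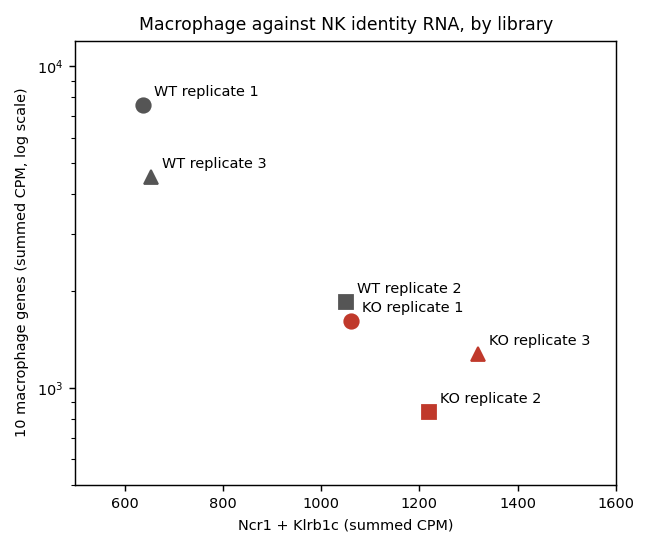
Summed CPM of the 10 macrophage genes (vertical axis) against summed CPM of Ncr1 and Klrb1c (horizontal axis), with 1 labelled point for each library. WT replicates 1 and 3 sit at the upper left (7573 and 4530 against 637 and 654 CPM), and WT replicate 2 (1848 against 1051 CPM) sits beside KO replicate 1 (1610 against 1062 CPM).

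Read gene by gene against Klrb1c in the same library, where the library scaling cancels, all 10 members were lower in every KO library than in any WT library. The same held for 74.3% of all other genes tested, beside 19.3% for CPM, since Klrb1c itself was higher in KO, so the count of 10 is not a result about these genes. Hmox1 had 737, 80.1 and 365 reads for every 100 reads of Klrb1c in WT and 46.7, 22.6 and 30.8 in KO, a difference of -3.12 in the mean log2 ratio. Csf1r had the smallest difference, at -1.97, and the median over the 10 genes was -2.58. The difference without WT replicate 2 was -4.02 for Hmox1 and -2.54 for Csf1r. Each of the 10 had an exact two-sided permutation p of 0.1, the smallest that 3 against 3 libraries allow, so this comparison could not pass 0.05, and the value adjusted over the 11 comparisons was 0.1. Ncr1 was also lower relative to Klrb1c, by -0.40, with the same exact permutation p of 0.1. Scaling each library to Ncr1 and Klrb1c instead of by TMM shifted the median of all genes to -0.67 on the log2 scale and that of the members to -2.64, which is -1.97 relative to all genes, against -1.87 under TMM. All 10 members were called lower by edgeR under that scaling, as were 38.2% of all genes tested.

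The members did not keep a fixed proportion to each other. Relative to the mean log2 CPM of the 3 C1q chains in the same library, each C1q chain varied by only 0.04 to 0.13 on the log2 scale over the 6 libraries, whereas the levels of the chains themselves spanned 3.22 to 3.36. That mean contains the chain it is set against, which narrows the range of the chains but not of the other members. Hmox1 was 1.77, 1.40 and 1.47 above the C1q mean in WT replicates 1, 2 and 3 and 0.76, 1.10 and 1.07 above it in the KO replicates. The Hmox1 ratio was thus lower in every KO library, by -0.57 on average, and WT replicate 2 grouped here with the WT libraries. Spic relative to the C1q mean was at -1.70, -1.66 and -1.53 in WT and at -2.02, -2.07 and -2.17 in KO. Its difference was -0.45, again without overlap and with WT replicate 2 inside the WT range. The exact two-sided permutation p was 0.1 for Hmox1 and for Spic, the smallest possible. The share of all genes tested without overlap relative to C1q was not computed, so the lack of overlap of single members is a description. With WT replicate 2 left out, the differences were -0.65 for Hmox1 and -0.47 for Spic.

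C1qc also did not overlap (exact permutation p = 0.1), but its difference was only -0.05, and C1qa and C1qb overlapped. For the 5 members left, the ratio to C1q overlapped between groups. Vcam1 differed by -0.37 and Slc40a1 by -0.30 on the log2 scale. Cd163 differed by 0.18, Adgre1 by 0.38 and Csf1r by 0.58, and the exact permutation p was 0.2 for each of these 5 genes. Csf1r relative to C1q was at 0.97, 1.75 and 1.02 in WT and at 1.36, 2.26 and 1.87 in KO, so the ratio was highest in the libraries with the least C1q. As C1q is the denominator of the ratio, its own level enters this order. When WT replicate 2 was left out, the differences were -0.47 for Vcam1, -0.30 for Slc40a1, 0.26 for Cd163, 0.59 for Adgre1 and 0.84 for Csf1r. In its own log2 level over the 6 libraries, Csf1r spanned the narrowest range of the members and Hmox1 the widest, at 3.96.

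**Figure D4:**
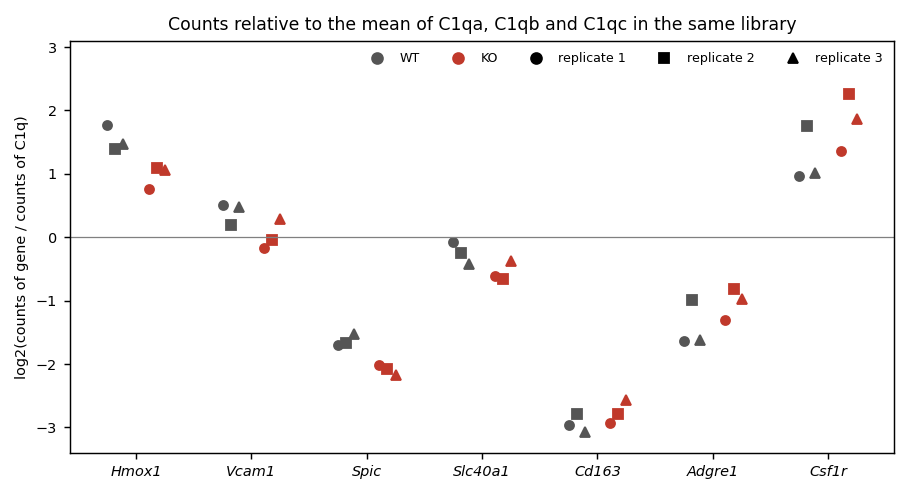
Log2 CPM of each macrophage gene minus the mean log2 CPM of C1qa, C1qb and C1qc in the same library (vertical axis), with 1 point for each of the 3 WT and 3 KO libraries for 7 genes. The C1q chains themselves are not drawn, Hmox1 and Spic are lower in all KO libraries than in any WT library, and Csf1r spreads over 1.29.

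To order the members by level, CPM were divided by the summed exon length in the annotation, with all 6 libraries. The sums and ratios to Ncr1 and Klrb1c above were not divided by length and serve only to compare libraries. In WT, Hmox1 was the highest member at 727 ± 526 CPM per kb (SD, n = 3), followed by C1qa at 429 ± 264, C1qb at 338 ± 208 and C1qc at 220 ± 133 CPM per kb. Csf1r followed at 154 ± 66.4 CPM per kb, then Vcam1 at 64.0 ± 43.1, Adgre1 at 44.0 ± 20.9, Slc40a1 at 39.6 ± 27.8, Spic at 34.4 ± 20.2 and Cd163 at 9.57 ± 5.67 CPM per kb. Each of these neighbors in the order differed by less than the sum of their SDs. In KO, Hmox1 (125 ± 40.1 CPM per kb) and C1qa (120 ± 53.6 CPM per kb) differed by less than their SDs, as did Csf1r at 66.5 ± 9.79 and C1qc at 59.9 ± 27.6 CPM per kb. For scale, Ncr1 was at 262 ± 78.4 CPM per kb in WT and 349 ± 46.7 CPM per kb in KO.

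Genes whose pattern over the 6 libraries was most like the mean pattern of the members were sought among 11974 genes with a mean of at least 1 CPM, by the root mean square difference of centered log2 CPM. Among the 8 nearest were Stab2 (0.07), Kcnj16 (0.08), Hs3st2 (0.08), Crip2 (0.09), Kcnk13 (0.10), Trf (0.11) and Sdc3 (0.11). Stab2, a scavenger receptor of sinusoidal endothelium, was at 139, 33.7 and 80.5 CPM in WT replicates 1, 2 and 3 and at 32.4, 15.3 and 25.03 CPM in KO replicates 1, 2 and 3. Its order of libraries was that of the summed members, highest in WT replicate 1 and lowest in KO replicate 2, with WT replicate 2 beside KO replicate 1. Stab2 was picked for its likeness to the members in these same libraries, so the shared order is a description only. On the same scale the members themselves lay from 0.09 for C1qa to 0.44 for Csf1r.

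Other macrophage genes, from a list that holds none of the 10, were lower as well. This list, like the others below, was chosen with earlier results of these data known, so it lends the members no separate support. Here and for the lists below, counts of genes that fell or rose are of genes called by edgeR at an adjusted p under 0.05. Of 18 tested, 12 fell and 0 rose in KO, with a median log2 fold change of -1.74, beside 7.43% and 4.44% over all genes. Those with the smallest adjusted p in edgeR were Cd68 (-1.14, a lysosomal membrane protein), Mpeg1 (-1.42, perforin-2), Lgmn (-1.79, a lysosomal protease) and Mertk (-2.16, a receptor for dying cells). Their summed CPM was 7029, 2469 and 4787 in WT replicates 1, 2 and 3 and 2232, 1349 and 1733 in the KO replicates, so WT replicate 2 was again nearest to KO. Without WT replicate 2, all 18 fell, where 15.6% of all genes tested did. Of 5 genes of marginal zone and metallophilic macrophages, Cd209f was at 0 in every library and 3 of the 4 tested fell, namely Marco (-2.40), Siglec1 (-1.70) and Colec12 (-1.59), with a median of -1.64 and sums of 37.9 to 141 CPM in WT and 12.2 to 24.2 CPM in KO. DESeq2 called 18 and 4 genes of these lists lower and 0 higher, where it called 15.1% and 8.33% of all genes tested. No gene tested on either list had a positive log2 fold change.

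The pathways around the members changed less evenly. Of 20 other genes of heme and iron handling tested, 9 fell and 1 rose, with a median of -0.59. Among those that fell were Blvrb, a biliverdin reductase that acts after heme oxygenase (-1.49), Lrp1, the receptor for heme bound to hemopexin (-1.13), Slc48a1, which carries heme out of the phagosome (-0.85), and Fth1, the ferritin heavy chain (-0.83). The 1 that rose was Steap3, a ferrireductase (0.43), which is named because it was the exception after its value was seen. Of 12 other complement genes tested, 3 fell and 0 rose (median -0.90), namely Cfp, which encodes properdin (-1.62), C3 (-1.20) and Cd93 (-0.92). DESeq2 called 8 of the 12 lower and 0 higher, where it called 15.1% and 8.33% of all genes tested.

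Of 11 genes of the CSF1 axis and myeloid transcription factors tested, 4 fell and 0 rose (median -0.53). DESeq2 called 8 lower and 0 higher, beside 15.1% and 8.33% over all genes. The 4 called by edgeR were Spi1, which encodes PU.1 (-0.95), Csf2rb (-0.92), Cebpa (-0.61) and Bach1 (-0.31). Bach1, the heme-regulated repressor of Hmox1, is also on the heme and iron list. Of 4 integrin genes that encode chains of VCAM1 receptors, Itga9 fell (-2.13) and Itgb7 rose (0.44), with a median of 0.29. Itga9 was at 100, 21.7 and 65.6 CPM in WT replicates 1, 2 and 3 and at 16.6, 9.21 and 16.9 CPM in KO replicates 1, 2 and 3, an order of libraries close to that of Vcam1.

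Lists of markers of other blood cells gave calls to different extents, beside 7.43% called lower and 4.44% higher over all genes tested. Of 11 erythroid genes, 10 fell and 0 rose (median -2.45), among them Hbb-bs (-2.68), Alas2 (-2.66), Hba-a2 (-2.53) and Klf1 (-1.79), and near-identical globin copies make the split of their reads uncertain. Their summed CPM was 238 to 394 in WT and 110 to 139 in KO. Of 11 neutrophil genes tested, 3 fell and 0 rose, namely Ltf (-4.43), Ngp (-4.12) and Mpo (-2.66), with a median of -3.72 and sums of 197 to 1589 CPM in WT and 42.6 to 213 CPM in KO. In 12 B cell genes, 1 fell and 0 rose (Fcrla, -2.12, median -2.31), a share near that over all genes, with sums of 671 to 1927 CPM in WT and 108 to 620 CPM in KO. Of 10 dendritic cell genes, Siglech (-1.30) and Clec9a (-1.17) fell and 0 rose (median -1.01, sums 485 to 862 against 213 to 403 CPM). DESeq2 called lower 11 erythroid, 5 neutrophil, 1 B cell and 8 dendritic cell genes and 0 higher, where it called 15.1% and 8.33% of all genes. Every gene tested on these 4 lists had a negative log2 fold change. WT replicate 3, not WT replicate 1, had the highest sums for the erythroid, neutrophil and B cell lists, so these lists did not follow the macrophage genes library by library.

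On each of the remaining lists, edgeR called at most 1 gene. Of 6 plasma cell genes, edgeR called 0, with 4 at an unadjusted p under 0.05 and 3 called lower by DESeq2. All 6 had a negative log2 fold change (median -1.75), and Jchain had the highest mean CPM. Their summed CPM was 869, 240 and 444 in WT replicates 1, 2 and 3 and 266, 181 and 195 in the KO replicates. That order of libraries was the one seen for each C1q chain, so it was not particular to macrophage genes. Of 8 monocyte genes, 0 were called lower and Ly6c2 was called higher (0.63), while 5 had a negative and 3 a positive log2 fold change. The median was -0.39, with sums of 1786 to 2505 CPM in WT and 1386 to 2071 CPM in KO. Of 9 T cell genes tested, 0 were called lower and Cd3g was called higher (0.59), while 6 had a negative and 3 a positive log2 fold change. The median was -0.70, with sums of 215 to 304 CPM in WT and 156 to 275 CPM in KO. All 8 platelet genes had a negative log2 fold change, and 1 was called lower (Treml1, -0.68, median -0.54, sums 1847 to 2919 against 1489 to 1617 CPM). Of 12 stromal and endothelial genes tested, 11 had a negative log2 fold change. Among them 1 was called lower (Cdh5, -1.33, list median -0.48, sums 275 to 391 against 217 to 226 CPM). DESeq2 called all 8 platelet genes, 5 stromal and endothelial, 3 monocyte and 1 T cell gene lower, and 2 monocyte, 1 T cell and 1 stromal and endothelial gene higher. Over all genes tested, DESeq2 called 15.1% lower and 8.33% higher. Without WT replicate 2, edgeR, which then called 15.6% of all genes lower and 10.7% higher, called lower 11 erythroid genes, 8 of 12 neutrophil, 7 dendritic, 5 plasma cell, 4 B cell, 4 monocyte, 2 platelet, 5 stromal and endothelial and 1 T cell gene, and higher 2 monocyte and 2 T cell genes. In the same fit, 13 heme and iron genes fell and 1 rose, 8 of 13 complement genes fell and 1 rose, 6 genes of the CSF1 axis and 3 of the marginal zone list fell, and 1 integrin gene fell and 1 rose. The part of any of these cells in the result for the macrophage genes was not tested.

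Other NK genes moved with Klrb1c. Of 13 tested, 7 rose and 1 fell in KO (median 0.77), where 4.44% of all genes rose. Those with the smallest adjusted p in edgeR were Cd160 (1.07), Tbx21, which encodes T-bet (0.90), Klre1 (0.84) and, in the other direction, Fcgr3 (-0.82), an Fc receptor that macrophages also express. Their summed CPM was 5286, 8757 and 5533 in WT replicates 1, 2 and 3 and 9988, 11644 and 11374 in the KO replicates. WT replicate 2 was thus the WT library nearest to KO for NK genes as well as for macrophage genes. Without WT replicate 2, 11 of the 13 rose, where 10.7% of all genes tested did, and 1 fell.

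**Figure D5:**
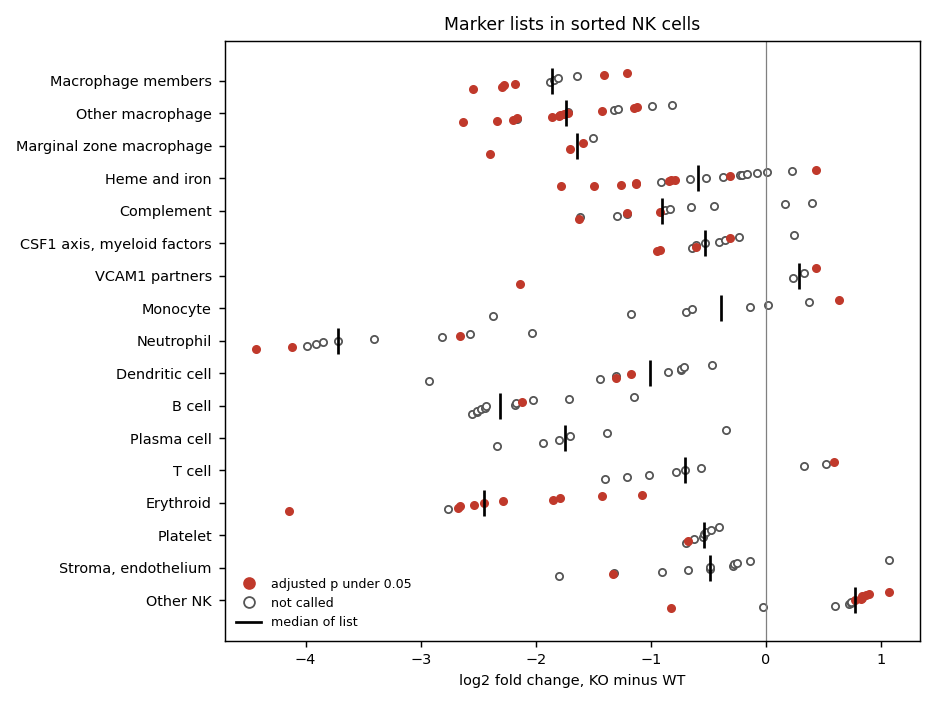
Log2 fold change, KO minus WT, of each tested gene (1 point each) in each list of marker genes, with called and uncalled genes in different colors and the list's median as a bar. All macrophage, erythroid, neutrophil and B cell genes lie below 0, with 12 of 18 other macrophage, 10 of 11 erythroid, 3 of 11 neutrophil and 1 of 12 B cell genes called, and 11 of 13 NK genes lie above 0.

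The human table offered a view of the same genes in NK92MI, an NK lymphoma line grown without other cells. It held 4 of the 10 counterparts, and the others were not analysed here. HMOX1 had 7 to 12 counts in BIX-01294 libraries and 3 to 6 in DMSO libraries, and ADGRE1 1 to 2 and 0 to 5, of totals of 16579469 to 17165446. VCAM1 had 75 to 91 counts with BIX-01294 and 23 to 32 with DMSO, and CSF1R 62 to 77 and 35 to 56. NCR1, for comparison, had 342 to 388 and 418 to 514 counts, and KLRB1 had 5 to 6 and 3 to 8. No test was run on these counts, and the inhibitor groups and the mouse genotypes are different contrasts.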

How the data were processed

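RNA was sequenced from 6 libraries of splenic NK cells and 6 of NK92MI. According to the study's methods and the submitters' processing notes, the authors trimmed reads with fastp 0.23.4, aligned them with STAR 2.7.11b (2 mismatches allowed; mouse GRCm38/mm10, human GRCh38/hg38) and deposited raw counts per gene from HTSeq 2.0.3. The annotation release and strand setting are not given in the sources used here, so positions and lengths from GENCODE M21 may differ from theirs. Libraries held 25891680 to 37438868 counts.

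Counts were analysed in R 4.3.3 with edgeR 4.0.16 (TMM, filterByExpr, quasi-likelihood test of genotype, Benjamini-Hochberg adjustment over all 13189 genes tested, called at an adjusted p under 0.05). Alternatives were DESeq2 1.42.0, limma-voom 3.58.1, other scalings and filters, the replicate block and each library left out. Ratios within a library were compared by exact permutation over the 6 libraries. Named genes were the 10 members, Ncr1, Klrb1c, Ehmt2, up to 4 called genes with the smallest adjusted p in each list (the most abundant gene where none was called), and the 8 genes most like the members. The members and lists were chosen with earlier results of these data known. Cd244a and Trac were not found under these symbols. Of the 8 genes most like the members, 1 is not reported here.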

Additional observations from a re-analysis of the deposited data

How the results depend on the processing

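All 10 macrophage genes kept a negative log2 fold change in every alternative run, and their number called varied. It was 6 with DESeq2's size factors (7.66% of all genes lower), with library totals (6.91%) and with a mean CPM of at least 1 (8.18%), 10 without a filter (6.92%), 10 with DESeq2 (1989 of all genes lower, 1098 higher) and 3 with limma-voom. Scaled to Ncr1 and Klrb1c it was 10 (5033 lower, 37 higher), and scaled to Klrb1c 10 (9519 lower, 34 higher), with a member median of -2.85. Ncr1 then turned to -0.20 and -0.39, since it was part of, or set against, the scale. Leaving out each library in turn gave 0 to 10 members, 0 to 2097 genes lower and 0 to 1433 higher, with 0 calls in all by edgeR without KO replicate 2 (1913 lower and 1295 higher at an unadjusted p under 0.05) or KO replicate 3 (1915 and 1372). Beyond these, 2 alternatives were chosen after seeing the data: DESeq2 without WT replicate 2 called 10 members (2423 genes lower, 1803 higher), and the scaling to Ncr1 and Klrb1c without it 10 (11152 lower, 84 higher), with a member median of -3.10 and Ncr1 at -0.20. At an adjusted p under 0.01 and an absolute log2 fold change over 0.5, edgeR called 0 members and 0 genes in either direction (2639 lower and 2080 higher at an unadjusted p under 0.05), and DESeq2 called 3 members, 1099 genes lower and 396 higher. The cause of these shifts was not tested.

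Whether replicate numbers pair the samples could not be decided from 3 libraries per group. Deviations of same-numbered WT and KO libraries correlated at 0.28, 0.35 and -0.19. For WT replicates 1 and 2 the same-numbered KO library correlated best, whereas WT replicate 3 correlated best with KO replicate 1 (0.28). With the replicate block, edgeR called 10 members, 1930 genes lower and 1292 higher.

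Groups of 3 were too small for a test of an outlying sample, so WT replicate 2 was set apart by its values alone.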
